A study of Homo sapiens with 18 samples.

Results

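The genes described here are 10 transcription factor genes of blood cell lineages: CEBPA, CEBPB, CEBPD and CEBPE of the C/EBP family, SPI1, TAL1, GATA2, GATA3, RUNX1 and MYB. They were chosen by name, with earlier results of these data known. Each was found by matching its symbol to the Ensembl identifier in the count files. They are 10 of the 58051 genes listed, and all 10 were among the 15037 genes with enough counts to be tested. The data are RNA-seq counts from 18 libraries of the cell line THP-1, which was established from human monocytic leukaemia and takes on macrophage features under the phorbol ester PMA. The series addressed raised and lowered Notch signalling in cells given IL-4. The cells carried 1 of 3 MSCV retroviral vectors with GFP. NIC1 carries the MYC-tagged intracellular domain of NOTCH1, the active form of the receptor. DNMAML carries a dominant-negative form of Mastermind-like, a co-activator that the Notch complex needs, and IRES is the vector without either. All cells were sorted for GFP and had 5 ng/ml of PMA for 48 h. Each construct was measured after 3 h of IL-4 (20 ng/ml) and unstimulated, which gives 6 groups of 3 libraries from experiments numbered 1, 2 and 3. The cells are 1 leukaemia line, and nothing in the labels says whether libraries came from separate transductions, so the spread between them may be technical in part.

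Lineage transcription factors bind DNA in small groups and set which blood cell programme a cell follows. SPI1 encodes PU.1, which together with C/EBP alpha drives monocyte and granulocyte genes, while MYB, RUNX1 and GATA2 act in stem and progenitor cells. TAL1 works with GATA factors, LMO2 and LDB1 in early blood, erythroid and megakaryocyte cells, GATA3 is best known from T cells, and IL-4 signals through STAT6.

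The promoters of the 3 genes with the clearest changes under IL-4 are shown first, as RefSeq gives them (GRCh38.p14). Promoter windows run from 250 bases before to 50 after a start site. The table used held 16 windows for 8 of the 10 genes, SPI1 and CEBPD being the others. The 250 bases before the start are printed 5′ to 3′ on the strand of the gene. Capitals mark every match on either strand to 11 short motifs: the STAT motifs (TTC and GAA with 3 or 4 bases of any kind between them), the motif TGGGAA of RBPJ (the DNA-binding partner of Notch), the ETS and PU.1 motif GAGGAA, the GATA motifs AGATAA and also TGATAA, the E-boxes CAGCTG and also CAGATG, the RUNX motif TGTGGT, and for C/EBP the palindrome TTGCGCAA and the looser TTGCNNAA. TAL1 has 2 windows on the minus strand of chromosome 1, the outer at chr1:47232336-47232585 and the inner at chr1:47231716-47231965. CEBPA has 1 window at chr19:33302535-33302784 on the minus strand, and MYB has 1 at chr6:135181058-135181307 on the plus strand.
TAL1, outer start: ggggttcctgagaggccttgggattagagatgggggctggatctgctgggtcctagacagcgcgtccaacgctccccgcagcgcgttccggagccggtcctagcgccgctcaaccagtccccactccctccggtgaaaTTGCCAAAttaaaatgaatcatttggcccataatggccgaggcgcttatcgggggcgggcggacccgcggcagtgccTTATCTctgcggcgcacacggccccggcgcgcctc
TAL1, inner start: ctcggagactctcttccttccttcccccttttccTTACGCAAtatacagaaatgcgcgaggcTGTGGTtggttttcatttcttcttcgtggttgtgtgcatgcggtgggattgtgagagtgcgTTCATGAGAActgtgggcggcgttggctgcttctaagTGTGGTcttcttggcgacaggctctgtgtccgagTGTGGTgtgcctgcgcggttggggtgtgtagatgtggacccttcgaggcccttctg
CEBPA: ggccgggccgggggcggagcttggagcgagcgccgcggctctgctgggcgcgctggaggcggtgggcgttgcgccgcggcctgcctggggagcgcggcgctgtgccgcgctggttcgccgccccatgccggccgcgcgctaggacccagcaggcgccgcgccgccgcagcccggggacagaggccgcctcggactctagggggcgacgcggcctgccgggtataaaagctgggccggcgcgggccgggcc
MYB: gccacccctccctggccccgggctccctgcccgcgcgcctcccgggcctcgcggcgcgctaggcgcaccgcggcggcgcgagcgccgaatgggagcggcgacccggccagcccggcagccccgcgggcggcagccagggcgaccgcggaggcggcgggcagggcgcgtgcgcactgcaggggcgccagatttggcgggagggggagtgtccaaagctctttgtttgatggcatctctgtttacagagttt
The inner TAL1 window held a STAT match with 4 bases between, read as TTCATGAGAA, whose first base lies 127 bases before the start. That motif was found in 6.44% of all 35116 windows and in 1 of the 16 windows of the lineage factors. The same window held 3 copies of TGTGGT, which 0.125% of all windows match at least 3 times, and a TTGCNNAA match on the other strand. The outer TAL1 window held an AGATAA match on the other strand 35 bases before the start, a motif in 10.3% of all windows, and a TTGCNNAA match, a motif in 10.5%. The CEBPA and MYB stretches printed hold none of the 11 motifs, and within the 50 bases after the MYB start there is a GAGGAA match, a motif in 27.9% of windows. None of these matches overlaps another. A match describes the letters only.

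Gene counts per library came to 12410668 to 15099788. NOTCH1 lay between 245 and 453 CPM (counts relative to library size, scaled by trimmed mean of M values) in NIC1 libraries, against 133 to 274 in the others. MAML1 lay between 102 and 139 CPM in DNMAML libraries, against 76.0 to 99.0 in the others. Reads from the vectors that align to these genes are part of these levels. The macrophage markers CSF1R (150 to 294 CPM), ITGAM (189 to 422) and LYZ (17.1 to 37.7) were present in every library, while CD14 (1.59 to 9.26) and CD68 (0.401 to 1.60) were low. Genes with at least 1 count numbered 25322 in DNMAML with IL-4 replicate 3 and 23179 in IRES unstimulated replicate 3, against 21067 to 21557 in the other 16 libraries.

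Levels of different genes were compared per length, as CPM per kb of exon. In unstimulated IRES cells SPI1 (11:47354860 to 47378576, minus strand) was highest at 158 ± 6.26 (SD, n = 3). CEBPA (19:33299934 to 33302564, minus strand) followed at 65.8 ± 14.7 and CEBPB (20:50190734 to 50192689, plus strand) at 27.7 ± 5.65 CPM per kb. The libraries of each of the 3 did not overlap with those of the next gene in the order. RUNX1 (21:34787801 to 36004667, minus strand) stood at 9.61 ± 1.08, CEBPE (14:23117304 to 23119616, minus strand) at 5.81 ± 1.25 and CEBPD (8:47736909 to 47739086, minus strand) at 4.25 ± 0.941 CPM per kb, and CEBPE and CEBPD overlapped. The other 4 genes were lowest. MYB (6:135181315 to 135219173, plus strand) had 1.64 ± 0.354 and GATA2 (3:128479427 to 128493185, minus strand) 1.47 ± 0.255 CPM per kb, which overlapped. GATA3 (10:8045378 to 8075203, plus strand) had 0.651 ± 0.165 and TAL1 (1:47216290 to 47232220, minus strand) 0.431 ± 0.0832 CPM per kb, which overlapped as well. Coordinates are whole genes on GRCh38 from GENCODE release 29, all 10 being protein-coding.

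With IL-4 the order differed in the middle and lower ranks, while SPI1, CEBPA and CEBPB kept ranks 1 to 3. CEBPA reached 137 CPM per kb in NIC1 cells, 128 in DNMAML cells and 138 in IRES cells, and in each construct its libraries then overlapped with those of SPI1 (155, 157 and 151 CPM per kb). TAL1 was at rank 7 with IL-4 and at rank 9 or 10 unstimulated, with 2.68 CPM per kb in NIC1 cells, 3.81 in DNMAML cells and 2.80 in IRES cells, and its IL-4 libraries lay above those of GATA2, MYB and GATA3. Divided by the longest transcript instead, the order kept every rank in 5 of the 6 groups, while in NIC1 cells with IL-4 RUNX1 and CEBPD exchanged ranks 4 and 5. By that length SPI1 with IL-4 stood higher, at 228 CPM per kb in NIC1, 231 in DNMAML and 223 in IRES cells. The values of CEBPA were the same by either length, and its IL-4 libraries then did not overlap with those of SPI1. The plot of levels per length shows this order.

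**Figure D1:**
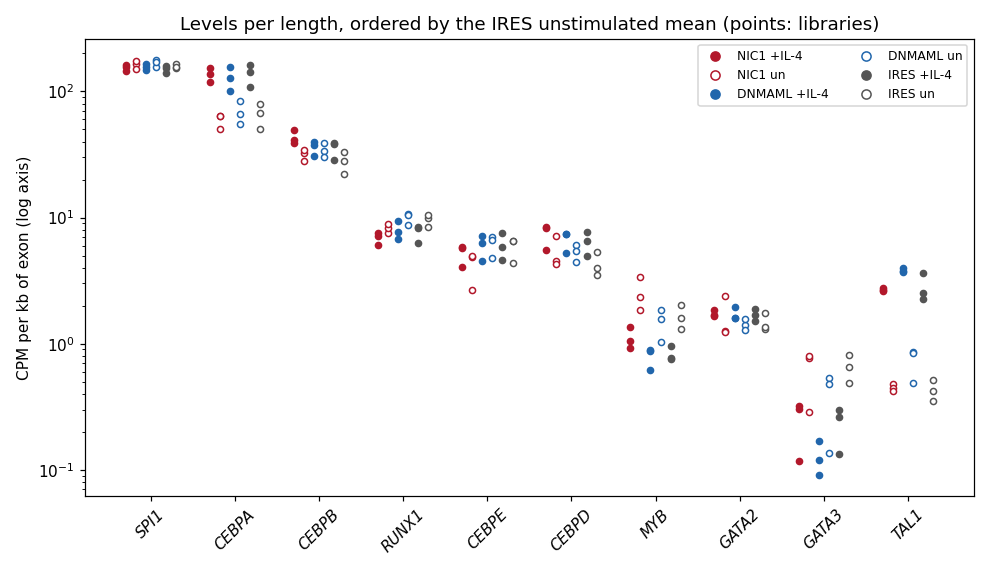
CPM per kb of exon (log axis) of the 10 genes in each of the 18 libraries, ordered by the mean of unstimulated IRES cells, with 1 column of points per group; filled points are with IL-4 and open points unstimulated. SPI1 and CEBPA lie at the top in all groups, and TAL1 with IL-4 (2.68 to 3.81 on group means) lies above the unstimulated TAL1 points (0.431 to 0.733).

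Changes with IL-4 were tested in each construct with edgeR's quasi-likelihood test, and a gene is called where the p-value, adjusted over all 15037 genes by Benjamini-Hochberg, is under 0.05. TAL1 and CEBPA rose in all 3 constructs and MYB fell in NIC1 cells. In NIC1 cells 3 of the 10 factors were called, against 3.05% of all genes tested. In DNMAML cells 2 were called, against 3.28% of all genes, and in IRES cells 2, against 2.93%. The experiment numbers paired the libraries, so a second fit took the number as a block, and its p is given as the blocked adjusted p wherever it changes a call. That fit called 6 of the 10 in NIC1 cells, 5 in DNMAML cells and 6 in IRES cells, against 8.8%, 9.95% and 9.04% of all genes. The median size of the log2 change over the 10 factors, sign aside, was 0.46 in NIC1, 0.33 in DNMAML and 0.47 in IRES cells, beside 0.11 over all genes tested in each construct. As the 10 were chosen with earlier results of these data known, and not matched for level, these shares and medians describe them only. They are no test of the set against other genes. In bulk RNA, fewer cells expressing a gene and less RNA per cell cannot be told apart.

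**Figure D2:**
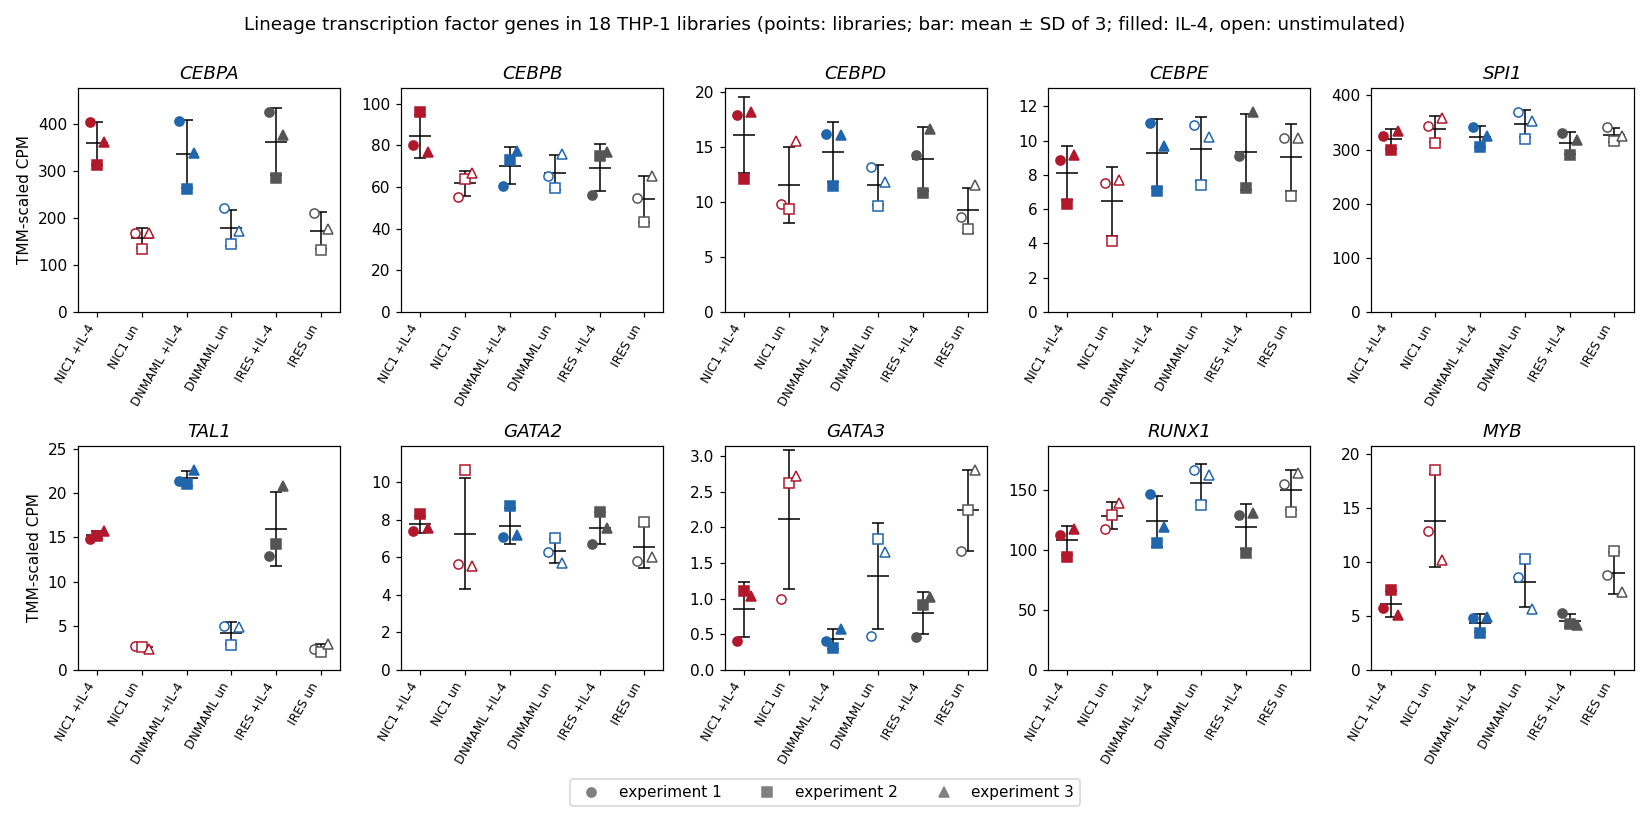
CPM of each of the 10 genes (linear axes from 0) in the 6 groups; each point is a library, its shape gives the experiment number, and the bar is the mean with the SD of 3. TAL1 is at 12.9 to 22.7 CPM in the 9 IL-4 libraries and at 2.02 to 4.93 in the 9 unstimulated ones, while SPI1 stays between 289 and 369 throughout.

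TAL1, the basic helix-loop-helix factor of early blood and erythroid cells, had the largest rise of the 10. In NIC1 cells it was measured at 14.8, 15.2 and 15.8 CPM with IL-4, against 2.74, 2.55 and 2.40 CPM unstimulated. DNMAML cells had 21.4, 21.1 and 22.7 CPM with IL-4, against 4.93, 2.78 and 4.82 unstimulated, and IRES cells had 12.9, 14.3 and 20.8 CPM with IL-4, against 2.40, 2.02 and 2.96 unstimulated. Every IL-4 library lay above every unstimulated library, whatever the construct. On the log2 scale the change was 2.57 ± 0.217 (SE; a fold of 5.94) in NIC1 cells, 2.37 ± 0.205 (5.18) in DNMAML cells and 2.70 ± 0.217 (6.49) in IRES cells. The edgeR adjusted p-values were 1.71e-06, 2.23e-06 and 1.08e-06, and each call held in all 6 fits that left out 1 of its libraries. By p, TAL1 ranked 28, 31 and 23 of the 15037 genes. Within single experiments its log2 difference ran from 2.44 to 2.72 in NIC1, 2.12 to 2.92 in DNMAML and 2.43 to 2.82 in IRES cells. An antisense gene that overlaps 845 bases of TAL1 exon had 0 counts. The inner of the TAL1 windows printed above is the one window of the set with that STAT match. The STAT motif with 3 bases between matched in the window of CEBPE, which was not called with IL-4, and the CEBPA window held neither. Whether any match bears on these changes was not tested.

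CEBPA encodes C/EBP alpha, which with PU.1 opens monocyte and granulocyte genes. It was measured at 404, 312 and 362 CPM with IL-4 in NIC1 cells, against 169, 133 and 169 unstimulated. DNMAML cells had 407, 263 and 338 CPM with IL-4, against 221, 145 and 173 unstimulated. IRES cells had 426, 285 and 378 CPM with IL-4, against 210, 133 and 177 unstimulated. The groups did not overlap in any construct, and the experiment 2 library was the lowest of its group in all 6. CEBPA rose by a log2 change of 1.19 ± 0.210 in NIC1 cells (edgeR adjusted p = 0.00331), 0.90 ± 0.208 in DNMAML cells (adjusted p = 0.0238) and 1.07 ± 0.209 in IRES cells (adjusted p = 0.00767). Within single experiments the differences lay close together, from 1.10 to 1.26 in NIC1, 0.86 to 0.97 in DNMAML and 1.02 to 1.10 in IRES cells. The DNMAML call was lost without unstimulated replicate 2 (adjusted p = 0.119), unstimulated replicate 3 (0.115), IL-4 replicate 1 (0.126) or IL-4 replicate 3 (0.0779). With the high-detection pair of libraries left out, DNMAML with IL-4 replicate 3 and IRES unstimulated replicate 3, the adjusted p was 0.108 in DNMAML and 0.0567 in IRES cells, while the log2 changes stayed at 0.90 and 1.08. With the experiment block the adjusted p of CEBPA was 1.60e-11 in NIC1, 1.13e-09 in DNMAML and 7.83e-11 in IRES cells. Antisense genes share 659 and 482 bases of CEBPA exon, with 10 and 91 counts over all libraries beside 65851 for CEBPA.

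The other C/EBP genes moved less. CEBPD, an early response member of the family, had 17.9, 12.1 and 18.2 CPM with IL-4 in NIC1 cells, against 9.81, 9.32 and 15.5 unstimulated. In IRES cells it had 14.3, 10.8 and 16.6 CPM with IL-4, against 8.64, 7.57 and 11.5 unstimulated. The groups overlapped, and within each experiment the IL-4 library was higher. The log2 change was 0.48 ± 0.237 in NIC1 cells (edgeR adjusted p = 0.555, blocked adjusted p = 0.0123) and 0.59 ± 0.240 in IRES cells (adjusted p = 0.345, blocked 0.00318). In DNMAML cells it was 0.34 ± 0.237 (adjusted p = 0.780, blocked 0.105), with 16.1, 11.4 and 16.1 CPM with IL-4 and 13.2, 9.59 and 11.8 unstimulated. CEBPB, the member tied to macrophage activation, had 80.3, 96.0 and 76.9 CPM with IL-4 in NIC1 cells, against 55.1, 63.7 and 66.6 unstimulated, and these groups did not overlap. Its log2 change there was 0.45 ± 0.157 (adjusted p = 0.208, blocked adjusted p = 0.0485). With construct and experiment number together as the block, the adjusted p was 0.115. In DNMAML and IRES cells the CEBPB groups overlapped, with log2 changes of 0.07 ± 0.157 and 0.35 ± 0.157 and no call in either fit. An antisense gene shares 231 bases of CEBPB exon and had 284 counts beside 16824. CEBPE, which acts late in granulocyte maturation, was not called in any construct; its log2 changes were 0.33 in NIC1, -0.04 in DNMAML and 0.05 in IRES cells, with 95% intervals that reached -0.24 to 0.90, -0.59 to 0.52 and -0.50 to 0.60.

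SPI1, the gene for PU.1, was the steadiest of the set, at 325, 300 and 335 CPM with IL-4 in NIC1 cells, against 343, 312 and 359 unstimulated. DNMAML cells had 342, 305 and 325 CPM with IL-4, against 369, 320 and 353 unstimulated, and IRES cells had 330, 289 and 317, against 341, 315 and 324. Within each experiment and construct the IL-4 library was slightly lower, and the groups overlapped. The log2 changes were -0.08 (95% interval -0.25 to 0.09) in NIC1, -0.10 (-0.27 to 0.07) in DNMAML and -0.07 (-0.24 to 0.10) in IRES cells. These intervals exclude a change of SPI1 as large as that of CEBPA.

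MYB, the factor that keeps progenitors dividing, was lower with IL-4. NIC1 cells had 5.75, 7.42 and 5.06 CPM with IL-4, against 12.9, 18.6 and 10.2 unstimulated. DNMAML cells had 4.77, 3.41 and 4.88 CPM with IL-4, against 8.59, 10.2 and 5.64 unstimulated, and IRES cells had 5.25, 4.21 and 4.16, against 8.78, 11.04 and 7.17. The groups were apart in each construct, with the narrowest gap in DNMAML cells. In NIC1 cells MYB fell by 1.19 ± 0.256 on the log2 scale (edgeR adjusted p = 0.0140). This call was lost without unstimulated replicate 2 (adjusted p = 0.0813), IL-4 replicate 1 (0.0698) or IL-4 replicate 3 (0.0909). MYB had a log2 change of -0.90 ± 0.263 in DNMAML cells (adjusted p = 0.0907, blocked adjusted p = 0.00488) and -0.98 ± 0.263 in IRES cells (adjusted p = 0.0590, blocked 0.00159). DESeq2 without a block also called it in DNMAML (adjusted p = 0.0355) and IRES cells (0.0150). Within experiments the log2 difference ran from -1.32 to -1.01 in NIC1, -1.59 to -0.21 in DNMAML and -1.39 to -0.74 in IRES cells.

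With the block, GATA3 fell with IL-4 in all 3 constructs and RUNX1 fell in DNMAML and IRES cells, and without it neither was called. RUNX1, a factor of stem cells and of several later lineages, had 147, 105 and 119 CPM with IL-4 in DNMAML cells, against 166, 137 and 162 unstimulated. IRES cells had 129, 97.3 and 130 CPM with IL-4, against 154, 131 and 164, and NIC1 cells had 112, 93.7 and 117, against 117, 129 and 139. The groups were apart in IRES cells only, and within every experiment the IL-4 library was lower. The log2 change was -0.33 ± 0.140 in DNMAML cells (edgeR adjusted p = 0.362, blocked adjusted p = 0.0146) and -0.33 ± 0.140 in IRES cells (0.379, blocked 0.0145). In NIC1 cells it was -0.25 ± 0.140 (0.659, blocked 0.0675). GATA3, the T cell factor, is measured on few reads, with 4 to 36 counts per library. NIC1 cells had 0.401, 1.10 and 1.04 CPM with IL-4, against 0.989, 2.63 and 2.72 unstimulated, DNMAML cells 0.409, 0.310 and 0.578, against 0.466, 1.83 and 1.66, and IRES cells 0.460, 0.902 and 1.02, against 1.67, 2.24 and 2.81. The IRES groups were apart, and the others overlapped through the low unstimulated library of experiment 1. The log2 changes were -1.32 ± 0.499 in NIC1, -1.55 ± 0.569 in DNMAML and -1.49 ± 0.498 in IRES cells, and the blocked adjusted p-values were 0.00478, 0.00614 and 0.00114. Without the block they were 0.280, 0.234 and 0.170.

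GATA2, the factor of stem cells and mast cells, was not called in either fit. Its levels with IL-4 were 7.42, 8.30 and 7.59 CPM in NIC1 cells, against 5.63, 10.7 and 5.52 unstimulated. The experiment 2 library of unstimulated NIC1 cells was the highest of all 18, and in that experiment the IL-4 library was lower, while in the other two it was higher. DNMAML cells had 7.08, 8.77 and 7.19 CPM with IL-4, against 6.26, 7.03 and 5.72, and IRES cells 6.70, 8.42 and 7.59, against 5.81, 7.86 and 6.002. The log2 changes were 0.10 (95% interval -0.36 to 0.56) in NIC1, 0.28 (-0.19 to 0.74) in DNMAML and 0.20 (-0.26 to 0.67) in IRES cells. An antisense gene of GATA2 shares no exon base with it and had 2769 counts beside 1782. The strand setting of the counting is not given in the sources used here.

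**Figure D3:**
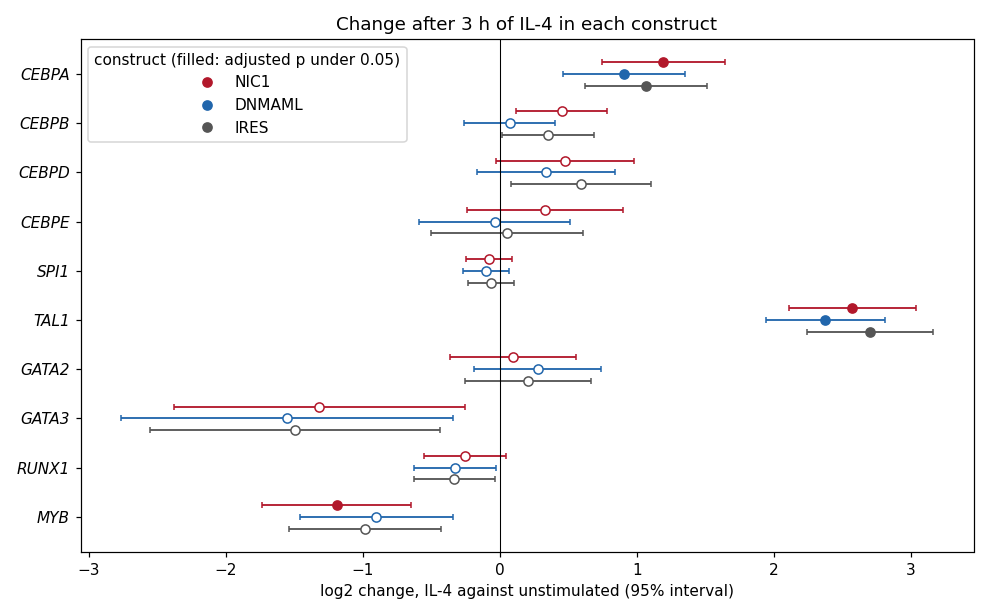
Log2 change with IL-4 against unstimulated for each gene (points, with 95% intervals) in NIC1, DNMAML and IRES cells, 3 libraries a group; filled points have an edgeR adjusted p under 0.05 without the block. TAL1 (2.37 to 2.70) and CEBPA (0.90 to 1.19) lie right of 0 in all constructs, MYB lies left of it (-1.19 to -0.90), and the 3 constructs overlap for every gene.

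Whether Notch activity altered these responses was tested as the difference of the IL-4 changes between constructs. No gene of the 15037 was called for NIC1 minus IRES, DNMAML minus IRES or NIC1 minus DNMAML, with or without the experiment block (0% of genes, edgeR). At an unadjusted p under 0.05 none of the 10 factors stood out without the block, beside 121, 98 and 214 of all genes, and DESeq2 called none of the 10. With the block 2 of the 10 stood out unadjusted for NIC1 minus DNMAML, beside 610 of all genes. With construct and experiment number together as the block, 13 genes were called for NIC1 minus DNMAML, none of them among the 10, and CEBPA was nearest with an adjusted p of 0.0584. The difference for TAL1 was -0.13 (95% interval -0.78 to 0.52) for NIC1 minus IRES, -0.32 (-0.95 to 0.30) for DNMAML minus IRES and 0.20 (-0.43 to 0.82) for NIC1 minus DNMAML. For CEBPA the differences were 0.13 (-0.50 to 0.75), -0.16 (-0.79 to 0.46) and 0.29 (-0.33 to 0.91). For MYB they were -0.20 (-0.98 to 0.57), 0.08 (-0.71 to 0.87) and -0.29 (-1.06 to 0.49). The intervals leave room for differences of that size in either direction.

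Constructs were also compared within each IL-4 state. NIC1 against IRES gave 0 of 10 called unstimulated and 0 of 10 with IL-4, against 0.233% and 0.2% of all genes. With the experiment block 2 of 10 were called unstimulated and 0 with IL-4, against 5.37% and 5.44% of all genes. MYB was the higher of the 2, with the unstimulated 12.9, 18.6 and 10.2 CPM of NIC1 cells against the 8.78, 11.04 and 7.17 of IRES cells. The groups overlapped, and within each experiment NIC1 was higher by 0.50 to 0.75 on the log2 scale. The log2 change of MYB was 0.62 ± 0.250 (edgeR adjusted p = 0.591, blocked adjusted p = 0.0368). CEBPE was the lower of the 2, with 7.53, 4.14 and 7.68 CPM in unstimulated NIC1 cells, against 10.2, 6.78 and 10.1 in IRES cells. Its log2 change was -0.48 ± 0.267 (adjusted p = 0.772, blocked 0.0238), and NIC1 was lower in all 3 experiments. At an unadjusted p under 0.05, 1 of the 10 stood out unstimulated and 0 with IL-4, beside 1071 and 895 of the 15037 genes, and DESeq2 without a block called none.

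NIC1 against DNMAML, the widest contrast of Notch activity in the design, gave 0 of 10 called in either IL-4 state, against 1.65% of all genes unstimulated and 1.44% with IL-4. With the block 4 of 10 were called unstimulated and 1 with IL-4, against 13.8% and 12.6% of all genes. TAL1 was called in both states. In NIC1 cells it was measured at 2.74, 2.55 and 2.40 CPM unstimulated, against 4.93, 2.78 and 4.82 in DNMAML cells, and with IL-4 at 14.8, 15.2 and 15.8 CPM, against 21.4, 21.1 and 22.7. NIC1 libraries lay below DNMAML libraries in both states without overlap. The log2 change was -0.70 ± 0.227 unstimulated (edgeR adjusted p = 0.156, blocked 0.0324). It was -0.51 ± 0.188 in the IL-4 libraries (adjusted p = 0.260, blocked 0.0116). Within experiments it ran from -1.005 to -0.13 unstimulated and from -0.53 to -0.47 with IL-4. Without DNMAML unstimulated replicate 2 the unstimulated difference was -0.93 and was called without the block (adjusted p = 0.0384). For NIC1 against IRES the log2 change of TAL1 was 0.06 ± 0.239 unstimulated and -0.06 ± 0.189 with IL-4. Those groups overlapped, and neither fit called it. MYB was higher in unstimulated NIC1 cells by 0.76 ± 0.251 (adjusted p = 0.168, blocked 0.00450), CEBPE was lower, with a log2 change of -0.56 ± 0.266 (0.376, blocked 0.00362), and RUNX1 was lower, with -0.27 ± 0.140 (0.426, blocked 0.0450). With IL-4 these differences were 0.48 ± 0.266 for MYB, -0.19 ± 0.262 for CEBPE and -0.20 ± 0.140 for RUNX1, none of them called. At an unadjusted p under 0.05 without the block, 2 of the 10 stood out unstimulated and 1 with IL-4, beside 2028 and 1767 of the 15037 genes, and DESeq2 without a block called none.

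DNMAML against IRES called 0% of all genes and 0 of the 10 factors in both states, and with the block 0.146% of all genes unstimulated and 0.0931% with IL-4, again with none of the 10. TAL1 came nearest, and was the 1 factor of the 10 with an unadjusted p under 0.05 in each state, beside 371 of the 15037 genes unstimulated and 357 with IL-4. Its level was 4.93, 2.78 and 4.82 CPM in unstimulated DNMAML cells, against 2.40, 2.02 and 2.96 in IRES cells, which overlapped by 1 library. With IL-4 the 21.4, 21.1 and 22.7 CPM of DNMAML cells lay above the 12.9, 14.3 and 20.8 of IRES cells. The log2 change was 0.77 (95% interval 0.29 to 1.25) unstimulated and 0.44 (0.04 to 0.84) with IL-4, both with an edgeR adjusted p of 1 and blocked adjusted p-values of 0.175 and 0.237. GATA3 was lower in DNMAML cells in all 3 experiments of both states, with log2 changes of -0.77 (-1.77 to 0.22) and -0.83 (-2.12 to 0.46) on the few counts given above. NIC1 and DNMAML share the IRES libraries as controls in these comparisons.

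Other lineage markers were followed beside these differences. The summed level of 19 T cell and B cell markers was 138 to 168 CPM in NIC1 libraries with IL-4 and 155 to 197 unstimulated. In DNMAML libraries it was 95.6 to 120 with IL-4 and 112 to 129 unstimulated, and in IRES libraries 94.2 to 123 with IL-4 and 107 to 138 unstimulated. Against DNMAML, 3 of the 11 tested markers (CD22, CD3D and CD3G) were called higher in NIC1 cells in both states and none lower. Of all genes, 1.04% unstimulated and 1.08% with IL-4 were called higher. For NIC1 against IRES, CD3G alone was called without the block (edgeR adjusted p = 0.00593 unstimulated and 0.00399 with IL-4). There 0.186% and 0.173% of all genes were called higher. The B cell marker MS4A1 had 2 counts and CD2 had 6 over all 18 libraries. The summed level of 22 erythroid, megakaryocyte and mast cell markers was between 20.8 and 29.6 CPM in all libraries, and 0 of the 4 tested were called in any comparison without the block. With the block KIT, the receptor of progenitors and mast cells, fell with IL-4 in DNMAML cells (log2 change -0.83 ± 0.336, edgeR blocked adjusted p = 0.0276) and in IRES cells (-1.16 ± 0.342, blocked 0.00241). In NIC1 cells the change of KIT was of like size but not called (-0.84 ± 0.367, blocked 0.0731). ITGA2B, a platelet integrin, was higher in unstimulated NIC1 than DNMAML cells with the block (1.80 ± 0.532, blocked 0.0200). HBB, HBG1, GYPB and PF4 had 0 counts in all libraries, and HBA1 had 3. These genes were picked from the 22 after their values were seen, so they do not stand for the list. Between 7 and 11 of the 22 had 0 counts in a group. Whether the lymphoid markers bear on the MYB, CEBPE and TAL1 differences between constructs was not tested.

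**Figure D4:**
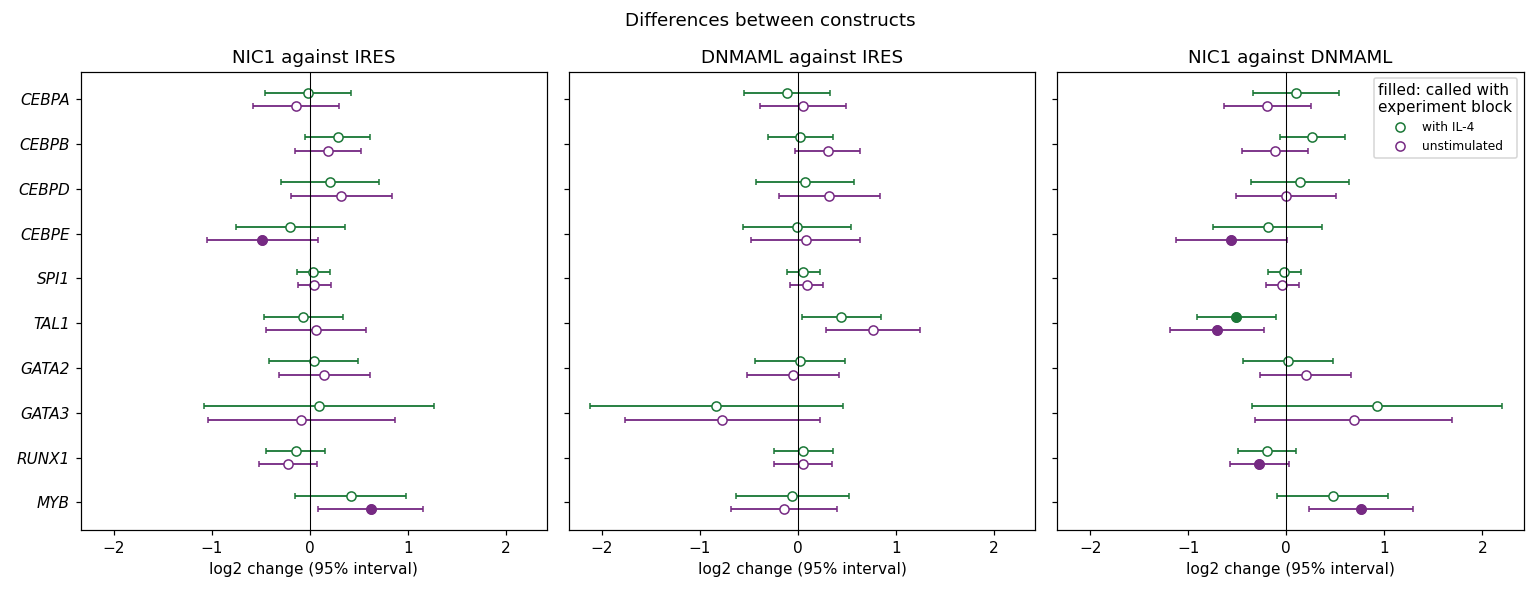
Log2 change between constructs for each gene (points, with 95% intervals, 3 libraries a group), with IL-4 and unstimulated; filled points are called with the experiment block. TAL1 lies left of 0 for NIC1 against DNMAML (-0.70 unstimulated and -0.51 with IL-4) and right of it for DNMAML against IRES (0.77 and 0.44). For NIC1 against IRES it lies near 0 (0.06 and -0.06). MYB lies right of 0 for NIC1 against both others.

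Partners and relatives of the 10 were read from a list of 35 genes, of which 31 were tested. With IL-4, 1 was called higher in NIC1 cells, 2 in DNMAML cells and 4 in IRES cells, and none lower. Of all genes tested, 2.25%, 2.15% and 2.02% were called higher in these constructs. The list's median log2 change was 0.04, -0.02 and -0.01 in these constructs, beside -0.01 over all genes in each. ETV6, an ETS repressor of stem cells and megakaryocytes, rose in each, at 84.5 ± 5.39 CPM with IL-4 against 68.1 ± 1.89 unstimulated in NIC1 cells (log2 change 0.31 ± 0.0717, edgeR adjusted p = 0.0215). In DNMAML and IRES cells its log2 changes were 0.33 (adjusted p = 0.0143) and 0.32 (0.0181). RUNX2, the relative of RUNX1 known from bone, rose in DNMAML cells (11.6 ± 0.616 against 7.39 ± 1.73 CPM, log2 change 0.66 ± 0.167, adjusted p = 0.0413) and in IRES cells (0.72 ± 0.167, 0.0246). In NIC1 cells its log2 change was 0.53 ± 0.164 (0.119, blocked 0.00905). RUNX2 and RUNX1 therefore differed in direction in all 3 constructs, which holds for RUNX1 as a call with the block in DNMAML and IRES cells.

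LMO2, the bridging partner of TAL1, rose in IRES cells to 130 ± 12.3 CPM with IL-4, against 101 ± 8.99 unstimulated (log2 change 0.36 ± 0.0914, edgeR adjusted p = 0.0454). In NIC1 and DNMAML cells its log2 changes were 0.30 (adjusted p = 0.107, blocked 0.00189) and 0.30 (0.109, blocked 0.00212). NFE2, an erythroid and megakaryocyte factor, had 9.11 ± 6.47 CPM with IL-4 in IRES cells, against 1.65 ± 1.29 unstimulated (log2 change 2.46 ± 0.616, adjusted p = 0.0438). In NIC1 and DNMAML cells NFE2 changed by 2.63 (0.0643, blocked 0.000128) and 2.25 (0.0581, blocked 2.28e-05). GATA1, the erythroid GATA factor, had 0 or 1 count per group, and the TAL1 partners LDB1 and TCF3 were not called (-0.09 and -0.01 on the log2 scale in IRES cells). GFI1, a repressor in granulocyte and lymphoid precursors, fell with IL-4 with the block in all constructs, with log2 changes of -0.40 in NIC1, -0.53 in DNMAML and -0.58 in IRES cells (blocked adjusted p = 0.00356, 0.000614 and 0.000131). It was higher in NIC1 than in IRES cells, by 0.56 unstimulated (blocked adjusted p = 0.000584) and 0.74 with IL-4 (4.34e-05). RUNX3 was the 1 listed gene called without a block between constructs, higher in NIC1 than in DNMAML cells by 0.44 ± 0.0790 unstimulated (adjusted p = 0.00969) and 0.58 ± 0.0791 with IL-4 (0.00114).

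Genes that C/EBP alpha and PU.1 are known to drive were listed as 17 myeloid genes, of which 16 were tested. None was called with IL-4 without the block in NIC1, DNMAML or IRES cells, against 3.05%, 3.28% and 2.93% of all genes. With the block IL6R, a chain of the interleukin-6 receptor, fell in all 3 constructs, with log2 changes of -0.45 in NIC1, -0.43 in DNMAML and -0.46 in IRES cells (edgeR blocked adjusted p = 0.000250, 0.000556 and 0.000386). The list's median log2 change with IL-4 was -0.10 in NIC1, -0.05 in DNMAML and -0.01 in IRES cells. Against DNMAML, ITGAM, the CD11b integrin, was lower in NIC1 cells by a log2 change of -0.78 ± 0.120 unstimulated (adjusted p = 0.00309) and -0.57 ± 0.119 with IL-4 (0.0244). Among 10 progenitor genes 7 were tested, none was called with IL-4 without the block, and with it MYC and BCL2 fell in all 3 constructs, as MYB did. The log2 change of MYC was -0.56 in NIC1, -0.54 in DNMAML and -0.57 in IRES cells (blocked adjusted p = 0.00451, 0.00658 and 0.00497). CD34 and PROM1 had 2 counts each over all libraries.

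The genes whose log2 CPM over the 18 libraries was most like that of a called factor were taken by Pearson r among 11099 genes of at least 5 CPM. These libraries share experiments, and most of r comes from the step between IL-4 and unstimulated libraries, so r within each set of 9 is given as well. For CEBPA they were FCGR2A (r = 0.988), ANKRD22 (0.973) and B3GNT5 (0.969). FCGR2A, an activating Fc receptor, had r of 0.936 within the IL-4 libraries and 0.946 within the unstimulated ones. ANKRD22 had 0.763 within the IL-4 and 0.927 within the unstimulated libraries, and B3GNT5 0.743 and 0.856. All 3 followed CEBPA within both sets. The r within a set includes differences between experiments, and CEBPA was lowest in experiment 2 in every group. For TAL1 they were ATF5 (0.978), SGPL1 (0.969) and PIK3R5 (0.968). Within the IL-4 libraries these had r of 0.639, 0.344 and 0.303, and within the unstimulated ones 0.692, 0.569 and 0.621, all lower than over the 18. For MYB they were NABP1 (0.921), LANCL3 (0.909) and TNFAIP3 (0.902). Within the IL-4 libraries these had r of 0.529, 0.509 and 0.728, and within the unstimulated ones 0.962, 0.897 and 0.733. After the mean of each experiment was subtracted, the first genes were RNF24 (0.992) for CEBPA, INHBE (0.984) for TAL1 and NDE1 (0.948) for MYB. Without that subtraction RNF24 had r of 0.837 over all libraries but -0.82 within the IL-4 and -0.343 within the unstimulated ones, the opposite direction. INHBE had 0.491 within the IL-4 and 0.681 within the unstimulated libraries, and NDE1 0.661 and 0.664.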

How the data were processed

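The deposited files hold whole-number counts of reads per gene, 1 file per library, made by the authors and not normalized. The submitters' processing notes name FastQC and Trimmomatic, HISAT2 on GRCh38.p12, then HTSeq and DESeq2. Their versions, the annotation release and the strand setting: not given in the sources used here. Of the reads, 23.8% to 30.9% per library fell in entries that name no gene, which were left out.

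Of 58051 genes, 56948 had a symbol, and 57447 were found in GENCODE release 29. edgeR's filterByExpr kept 15037, and library sizes were scaled by TMM. The first fit was edgeR's robust quasi-likelihood test on 6 group means over all 18 libraries, with 12 contrasts and Benjamini-Hochberg adjustment over all genes in each. Standard errors and 95% intervals come from its F statistic and degrees of freedom. A gene is called at an adjusted p under 0.05. Log2 CPM for likeness used a prior count of 2. Alternatives were other size factors, no filter, DESeq2, blocks, fewer groups and left-out libraries. Python 3.11.15 and matplotlib 3.10.9 were used beside R 4.3.3 with DESeq2 1.42.0, edgeR 4.0.16 and limma 3.58.1. On simulated counts for the 15037 genes, with 200 changed in IL-4 against unstimulated IRES cells, this test found 88% of those changed by a log2 of 1 and 99% of those changed by 2, with 13 false among 200 calls. The changed genes were drawn from those with a mean above 5 CPM, and no experiment effect was simulated. These shares therefore do not hold for genes of lower level, such as GATA3, and the pairing of the libraries is not part of them.

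The numbers 1 to 3 are given as experiments in the labels. Each library's deviation from its group mean was correlated across genes with every other. Over the 45 pairs that share a number, Pearson r was 0.206 to 0.759 (median 0.466), and over the 108 other pairs its median was -0.406. For 18 of 18 libraries the closest one carried the same number, so the numbers pair the libraries. Estimates beside a blocked p come from the fit without the block. The blocked fit treats IL-4 and unstimulated libraries of 1 construct and number as independent. Whether they share a culture is not stated, and if so its p between constructs is too small.

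The 10 genes, the 5 other lists and the motifs were chosen with earlier results of these data known. All 10 genes are named with their values. From the lists, genes called in either fit are named, and GATA1, LDB1, TCF3 and markers at or near 0 were added after their values were seen. Genes of like pattern are the 3 of highest r for each factor called without the block. RefSeq promoter windows (GRCh38.p14) were matched by symbol. The values of 1 gene of the myeloid list are not reported here.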

Additional observations from a re-analysis of the deposited data

How the results depend on the processing

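Counts of the 10 factors called moved mainly with the pairing. With the experiment number as a replicate block, edgeR and DESeq2 each called 6 with IL-4 in NIC1 cells, 5 in DNMAML cells and 6 in IRES cells, against 3, 2 and 2 without it. Between constructs both blocked tools called 2 for NIC1 against IRES unstimulated, 4 for NIC1 against DNMAML unstimulated and 1 with IL-4, against 0 each. A block of construct and experiment number together, chosen after the data were seen, called 6 with IL-4 in each construct. With the 2 high-detection libraries left out, and likewise with only the libraries of the groups compared, 1 factor (TAL1) was called with IL-4 in DNMAML and 1 in IRES cells. Leaving out 1 library each gave between 1 and 2 called with IL-4 in DNMAML cells, and between 0 and 1 for NIC1 against DNMAML unstimulated. Without a filter on low counts 1 factor, MYB, was called for NIC1 against DNMAML unstimulated (adjusted p = 0.0499), and CEBPA was lost in DNMAML cells with IL-4 (0.0978). Over all genes, the IL-4 calls in NIC1, DNMAML and IRES cells numbered 458, 493 and 441 without the block and 1323, 1496 and 1360 with it. They were 419, 296 and 286 with the 2 libraries left out and 388, 259 and 191 with only the libraries of the groups compared. NIC1 against IRES called 35 genes unstimulated and 30 with IL-4, and 77 and 73 without the filter. The cause of these moves was not tested. No direction of a called change reversed under any alternative run. Counts limit GATA3 most, with 4 to 36 reads per library.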
